A study of Mus musculus with 6 samples.

Results

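The genes described here are 40 regulators of autophagy and of the lysosome, and the accessibility of their chromatin was measured by ATAC-seq in mouse muscle nuclei. The intervals counted for them are those of the deposited table that overlap the body of one of these genes or lie within 1 kb of one of its transcription start sites (TSS), by the GENCODE vM1 annotation of mm9. The rule took 99 of the 39768 intervals, 81 of them promoter intervals (overlapping the 1 kb either side of a TSS by at least 1 bp, 20973 in the whole table) and 18 gene-body intervals farther from the TSSs of their gene. All 40 genes had at least 1 promoter interval, whereas 11018 of 22380 annotated protein-coding genes had one (49.2%). ATAC-seq uses a transposase that cuts exposed DNA, so that the count of fragment ends in an interval measures how open it is.

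Each group holds 3 libraries from C57BL/6 mice that were 7 weeks old. All mice carried floxed alleles of both genes that encode the histone variant H2A.Z (H2A.Z-1 flox/flox and H2A.Z-2 flox/flox, gene symbols H2afz and H2afv). CTL mice lacked the HSA CRE transgene and H2A.Z dKO mice carried it. The human α-skeletal actin promoter drives this Cre in post-mitotic muscle fibres only, so that other cells of the muscle keep H2A.Z. The comparison asks whether open chromatin at these genes depends on H2A.Z, which marks the nucleosomes around active start sites. Each library was made from 50000 nuclei. The labels name tibialis anterior muscle and the study's methods name hind limb muscles, and neither says that the replicates came from separate animals, so p-values measure only the spread between these libraries.

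The targeted genes were looked at first. The 2 intervals inside the floxed segment of H2afz summed to 12.4 ± 2.80 CPM (counts per 1000000 counts in intervals; SD, n = 3) for CTL and to 11.3 ± 1.52 CPM (SD, n = 3) for H2A.Z dKO, and an exact two-sided permutation test did not separate them (p = 0.6, the smallest possible being 0.1). The floxed segment of H2afv holds no interval. The deletion could thus not be seen in these counts, and H2A.Z dKO below means the libraries labelled so. Library totals ran from 3520008 to 6117245 counts, so that 1 count is worth 0.163 to 0.284 CPM. H2A.Z dKO replicate 1 stood apart, with 77.5% of its counts in promoter intervals against 73.7% to 75.4% in the other libraries, and results that rest on it are given with and without it.

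Markers of skeletal muscle fibres such as Acta1, Ckm and Ryr1 were accessible at their promoters for 10 of the 13 genes on the list, with summed values of 538, 435 and 537 CPM in CTL and 447, 572 and 522 CPM in H2A.Z dKO. No promoter interval was listed for any of 7 macrophage or 4 satellite cell markers. Of 8 endothelial markers 6 had one, Pecam1 and Emcn being without, and their sum was 84.8, 94.4 and 90.6 CPM in CTL and 73.7, 65.7 and 65.5 CPM in H2A.Z dKO, with no overlap between the groups. Promoter values of single genes did not overlap between groups at 11.3% of all genes. Of the 6 genes 5 had a log2 fold change below 0 and 1 (Tek) above. At an unadjusted edgeR p under 0.05 there were 2, both below 0 (2.44% of all genes), and 0 had an adjusted p under 0.05. Of 6 fibroblast markers 4 had a promoter interval, and their sum was 72.6, 84.2 and 77.8 CPM in CTL and 90.4, 86.2 and 84.4 CPM in H2A.Z dKO. The lowest H2A.Z dKO value, 84.4 CPM, lay barely above the highest CTL value, 84.2 CPM. These sums leave out the scaling factors of the test. Of the 4 genes, 3 lay above 0 and 1 (Col1a1) below on the log2 scale, with 0 at an unadjusted edgeR p under 0.05. The groups overlapped for the 2 of 4 smooth muscle and pericyte markers with a promoter interval, at 36.6, 32.2 and 32.7 CPM and 25.03, 34.1 and 29.7 CPM, and for the 1 of 3 Schwann cell markers with one, at 45.4, 44.1 and 49.7 CPM and 50.2, 43.3 and 47.2 CPM. The part of these shifts in the values of the autophagy genes was not tested. In these bulk libraries, fewer nuclei of a type and less open chromatin per nucleus cannot be told apart.

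Macroautophagy encloses cytoplasm, protein aggregates or worn mitochondria in a double membrane and delivers them to the lysosome for digestion. A kinase complex starts the process, a lipid kinase complex marks the membrane, ubiquitin-like conjugation systems attach proteins of the Atg8 family to it, and receptors tie the cargo to those proteins. In skeletal muscle the pathway supplies amino acids in fasting and removes damaged mitochondria, and the transcription factors TFEB and FOXO3 are known to drive many of its genes.

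Matches to 2 kinds of sequence that bear on that control were counted at the start sites of these genes, and the examples below were printed as the 8-base E-box palindromes, the stretch with the most E-boxes, and forkhead sites inside accessible intervals. Exact matches were sought on both strands from 250 bases before to 50 bases after each annotated TSS, 97 for the 40 genes and 46028 for all protein-coding genes. The E-box CACGTG, which is its own reverse complement and is the core of the site bound by TFEB, lay in 10 of the 97 windows (10.3%), against 7.67% of all windows and 9.13% of the windows of genes with a promoter interval. Those windows belong to 8 genes, Atg3, Atg5, Atg14, Bnip3, Ctsd, Gabarap, Lamp1 and Vps11. Windows of neighbouring TSSs of a gene overlap and count a site again, so shares of genes with a match in any window are given too, here 20% of the 40 against 14.6% of genes with a promoter interval. The longer palindrome TCACGTGA, which contains CACGTG, lay in 4 windows of Atg3, Ctsd and Vps11 (4.12%, against 1.15% of all windows and 1.61% of those of genes with a promoter interval), or 7.5% of the 40 genes against 2.39%. The same palindrome with a further G before it and C after it lay in 0 of the 97 windows, against 0.339% of all windows and 0.517% of those of genes with a promoter interval. Of the 13 CACGTG sites 8 lay inside an interval of the table. Capitals mark the palindrome in these stretches of mm9, read 5′ to 3′ on the strand of the gene.
Atg3 (chr16:45158860-45158887, plus strand): gagagtcgagTCACGTGAggccttaggt
Ctsd (chr7:149573814-149573841, minus strand): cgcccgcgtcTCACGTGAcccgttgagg
Vps11 (chr9:44169737-44169764, minus strand): gcctttcggtTCACGTGAtttcgcttcc

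The Atg3 and Ctsd palindromes lay inside promoter intervals and the one of Vps11 at the start of the gene between its 2 intervals. Lamp1, which encodes an abundant glycoprotein of the lysosomal membrane, held the most E-boxes, 4 within a stretch of 72 bases that spans its TSS. Only the last of them, 11 bp past the TSS, lay inside an interval. Capitals mark each CACGTG.
Lamp1 (chr8:13159090-13159161, plus strand): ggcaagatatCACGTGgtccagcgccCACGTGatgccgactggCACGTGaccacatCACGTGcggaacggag

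The other motif was TGTTTAC, the core recognised by forkhead factors such as FOXO3 (TGTTTAC or GTAAACA on the strand shown). It lay in 5 windows (5.15%, against 3.05% of all windows and 2.70% of those of genes with a promoter interval), of Atg4b and Becn1, which hold 1 site each, so that 5% of the 40 genes had a match against 4.84% of genes with a promoter interval. The Becn1 site lay inside a promoter interval. Outside the windows, an intronic interval of Bnip3 listed by the authors for both groups carried the same letters 2315 bp from the nearest TSS. The remaining motifs of CpG-rich promoters were counted beside them. CCGGAAG, the core of sites for ETS factors, lay in 21 windows of 11 genes (21.6%, against 10.8% of all windows and 15.4% of those of genes with a promoter interval, or 27.5% of the 40 genes against 23.2%), and the palindromic core of sites for NRF1 in 2 windows of Atg7 that hold 1 site (2.06%, against 1.16% and 1.66%, or 2.5% of the 40 genes against 2.43%). A match describes these letters and shows no binding. Capitals mark the forkhead core.
Becn1 (chr11:101163636-101163662, minus strand): tccgagccggGTAAACAgggatctgga
Bnip3 intron (chr7:146098757-146098938, minus strand): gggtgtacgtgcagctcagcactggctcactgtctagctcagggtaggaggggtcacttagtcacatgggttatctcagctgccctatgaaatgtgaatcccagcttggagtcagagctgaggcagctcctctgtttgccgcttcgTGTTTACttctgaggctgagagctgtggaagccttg

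Accessibility of the promoters was summed for each gene over its promoter intervals, taking the widest where intervals overlap. These promoter sums had a median of 152 RPKM (CPM per kilobase of interval) for the 40 genes and 135 RPKM for all 11018 genes, and 28 of the 40 lay above the median of all genes. In CPM the medians were 71.4 and 55.3, and the highest sum of the group was 27.3 times the lowest. The promoter intervals resembled the others in size and base composition, with a median width of 189 bp against 194 bp for all promoter intervals, a median G+C content of 64.8% against 65.3%, and 7.86 against 7.81 CpG per 100 bp. By the peak sets of the authors, 53 of the 81 (65.4%) belong to both groups, against 52.3% of all promoter intervals. Of the 81 midpoints, 46 lay within 100 bp of a TSS and 75 within 500 bp. Promoter intervals of 13 genes also lie at another gene, so that the counts of 27 intervals cannot be assigned to the autophagy gene alone.

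**Figure D1:**
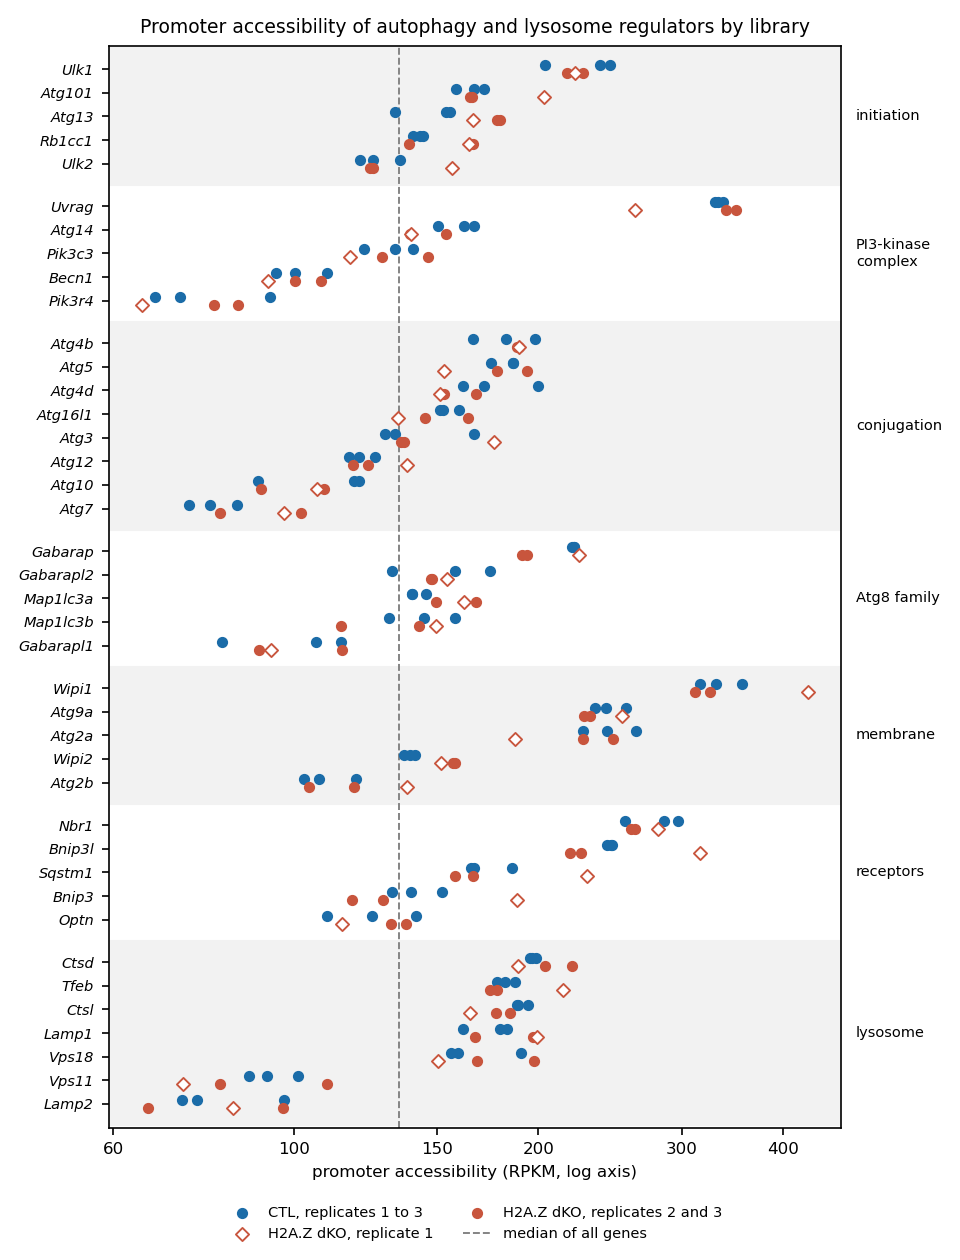
Promoter accessibility of each gene in RPKM (horizontal log axis), 1 point per library, genes grouped by role, with the dashed line at the median of all 11018 genes. Wipi1, Uvrag, Nbr1 and Bnip3l lie far to the right and Pik3r4, Lamp2, Atg7 and Vps11 to the left, and the points of CTL and H2A.Z dKO overlap for most genes.

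No promoter sum of these genes passed an adjusted p of 0.05 in edgeR's quasi-likelihood test, where 0 of all 11018 genes passed (0% called), and none of the 99 intervals did, where 0 of 39768 passed (0% called). At an unadjusted p under 0.05 there was 1 gene of the 40, Atg13, beside 467 of all genes (4.24%, and 1.80% in its direction), and 1 interval of the 99, a promoter interval inside an intron of Tfeb, beside 1970 of all intervals (4.95%, and 2.31% in its direction), so that 1 of 40 is 2.5% of the genes and 1 of 99 is 1.01% of the intervals. The gene share lies below that of the whole table for either direction and above it for the direction of Atg13, and the interval share below both, with 1 member behind each. DESeq2 gave 0 members at that level among genes and among intervals. The log2 fold change of H2A.Z dKO over CTL was above 0 for 21 genes and below 0 for 19, with a median of 0.014 beside -0.0034 for all genes, and the largest size was 0.23. A change of 1.5-fold in either direction lay outside the 95% confidence interval of 39 of the 40 genes, Atg7 being the exception, and of 87.4% of all genes. For all 40, and for 98.7% of all genes, it stayed under 2-fold.

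**Figure D2:**
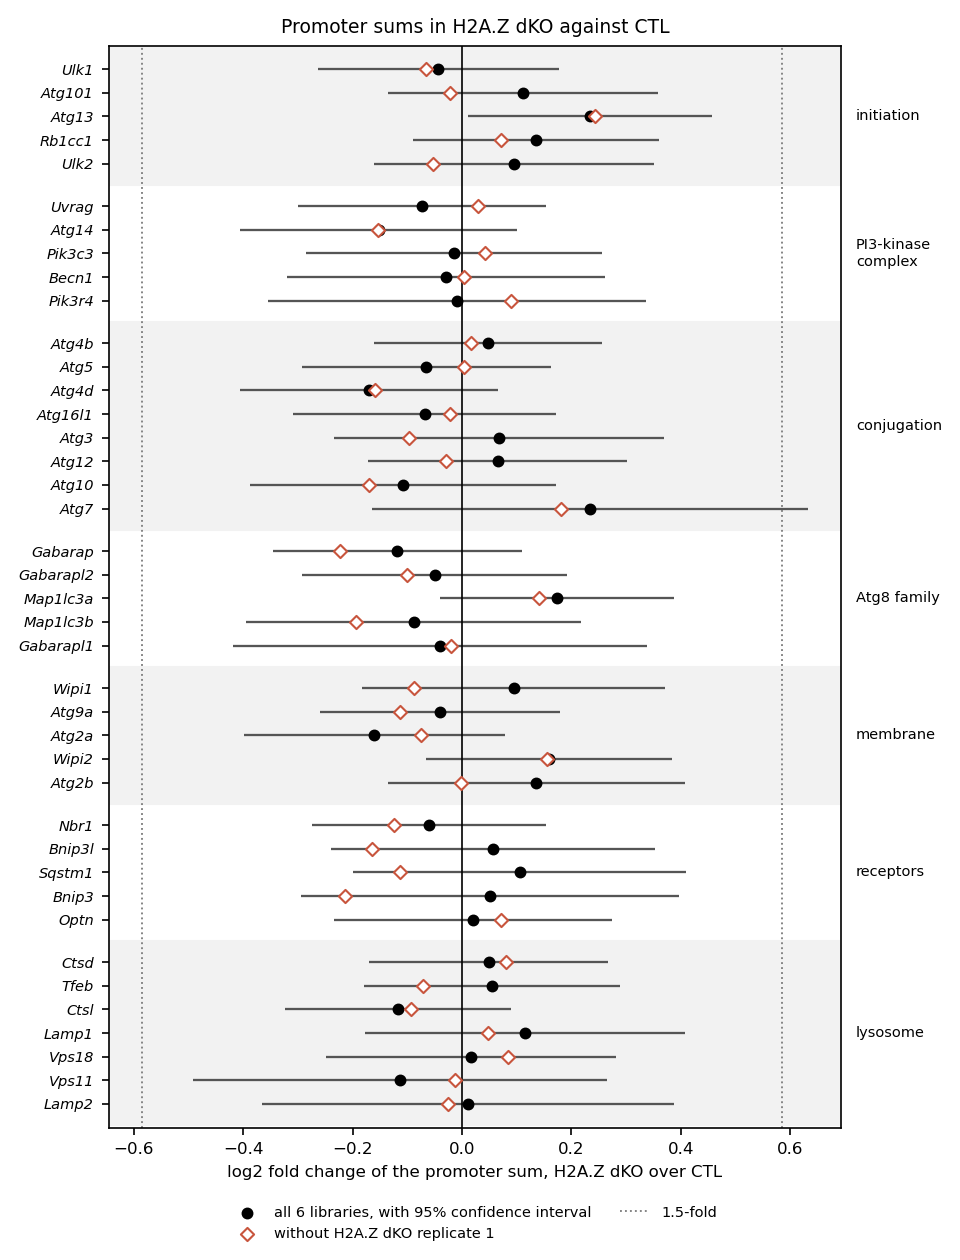
Log2 fold change of the promoter sum, H2A.Z dKO over CTL, for each gene (black points; lines are 95% confidence intervals over 3 against 3 libraries), with open diamonds for the value without H2A.Z dKO replicate 1 and dotted lines at 1.5-fold. The interval of Atg13 starts just above 0, that of Atg7 passes the right dotted line, and 16 diamonds lie on the other side of 0 from their points.

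H2A.Z dKO replicate 1 was the highest of the 6 libraries at 12 of the 40 genes and the lowest at 12, against 28.9% and 28.3% of all genes. Without it, 16 of the 40 log2 fold changes took the other sign (25.7% of all genes), 15 of the 40 were above 0 (38.4% of all) and 4 of the 40 reached an unadjusted p under 0.05 (Gabarap, Bnip3, Bnip3l and Atg13), beside 9.01% of all genes. Among the 99 intervals 6 did, 3 promoter intervals (of Atg13, Bnip3 and Nbr1) and 3 gene-body intervals (1 of Ulk1 and 2 of Uvrag), beside 7.95% of all intervals. No gene or interval passed the adjusted threshold in that fit. Leaving out some 1 of the 6 libraries changed the sign for 24 of the 40 genes, and for 50.6% of all genes. Groups of libraries that did not overlap in scaled CPM were seen at 4 of the 40 promoter sums (Atg13, Map1lc3a, Wipi2 and Ctsl), beside 11.3% of all genes, and at 10 of the 99 intervals, beside 10.8% of all intervals.

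**Figure D3:**
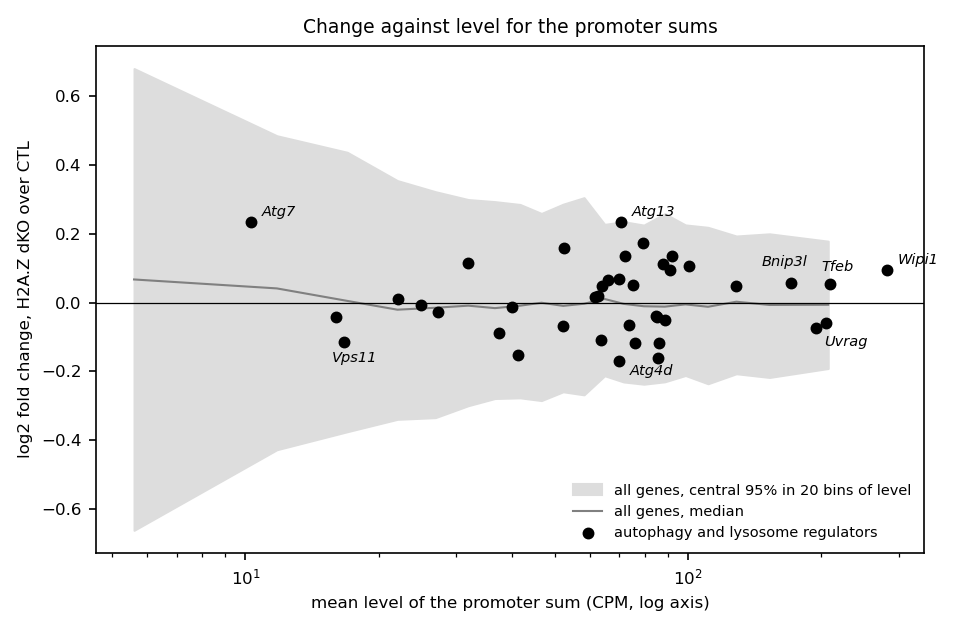
Log2 fold change of each promoter sum (vertical) against its mean level in CPM (horizontal log axis), with the central 95% of all genes in 20 bins of level in grey, drawn between the first and last bin medians. Of the 40 points, Wipi1 and Tfeb lie to the right of the band, Atg13 sits at its upper edge with 0.23 on the log2 scale, and the others lie inside it.

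The initiating kinase complex is made of ULK1 or its relative ULK2, ATG13, ATG101 and FIP200, the product of Rb1cc1. Atg13 (chr2:91514775-91550733, minus strand), the adaptor that binds the kinase to FIP200, had 67.7, 68.3 and 58.5 CPM in the CTL libraries and 73.0, 78.0 and 78.9 CPM in the H2A.Z dKO libraries. Every H2A.Z dKO library lay above every CTL library. The comparison gave a log2 fold change of 0.23 (SE 0.104, 95% confidence interval 0.011 to 0.46), an edgeR p of 0.041 and an adjusted p of 0.937, and 0.24 without H2A.Z dKO replicate 1. Over 16 alternative settings the edgeR, DESeq2 or voom p ran from 0.023 to 0.148 and was under 0.05 in 10, and not with DESeq2, with the replicate block, or without CTL replicate 1, CTL replicate 3, H2A.Z dKO replicate 2 or H2A.Z dKO replicate 3. Its promoter intervals lie at the start of another gene as well. The interval over its TSS (chr2:91550594-91550782, which overlaps a UTR) had counts of 163, 112 and 74 in CTL and 181, 135 and 137 in H2A.Z dKO, with a log2 fold change of 0.28 (SE 0.166), an edgeR p of 0.108 and an adjusted p of 0.972.

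Ulk1 (chr5:111213507-111239116, minus strand) had 89.9, 77.1 and 92.6 CPM in CTL and 83.9, 82.0 and 85.8 CPM in H2A.Z dKO, with overlapping groups and a log2 fold change of -0.043 (95% confidence interval -0.26 to 0.18, and -0.065 without H2A.Z dKO replicate 1). Ulk2 (chr11:61589151-61668575, minus strand) had 87.1, 94.0 and 84.1 CPM in CTL and 109, 86.4 and 87.0 CPM in H2A.Z dKO, where replicate 1 alone lay above the CTL values. Its log2 fold change was 0.095 (95% confidence interval -0.16 to 0.35) with that library and -0.053 without it. Per base, the value of the Ulk1 promoter was 1.74 times that of Ulk2 on average (range over the 6 libraries 1.42 to 2.03), and above 1 in every library. This ratio depends on the widths summed, 378 bp for Ulk1 and 696 bp for Ulk2. In CPM the mean of Ulk1 was the lower, 85.2 against 91.3. Atg101, whose product steadies ATG13, gave 0.11 (95% confidence interval -0.14 to 0.36, and -0.022 without H2A.Z dKO replicate 1) and Rb1cc1, the scaffold, 0.13 (95% confidence interval -0.09 to 0.36, and 0.072 without H2A.Z dKO replicate 1) on the log2 scale. Both had their groups overlap.

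Ulk1 also has 2 intervals in introns. The narrow one of 18 bp lies 21189 bp from the TSS, and its sequence is printed because its groups did not overlap.
Ulk1 intron (chr5:111217919-111217936, minus strand): gacagtctggtcccaacc
It held only 9, 6 and 5 counts in CTL and 14, 11 and 11 in H2A.Z dKO, with a log2 fold change of 0.72 (SE 0.344), an edgeR p of 0.063 and an adjusted p of 0.972. The authors' peak sets list it for H2A.Z dKO alone, where it was higher, so listing and direction are not independent. The other (chr5:111237420-111237630), 1591 bp from the TSS, had 165, 129 and 98 counts in CTL and 165, 99 and 107 in H2A.Z dKO and a log2 fold change of -0.21 (SE 0.173, and -0.38 without H2A.Z dKO replicate 1). The pair of intronic intervals thus gave values of opposite sign, and neither passed the test. Without H2A.Z dKO replicate 1 the second had an edgeR p of 0.027 and an adjusted p of 0.588.

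The lipid kinase complex comes next in the pathway. VPS34, the product of Pik3c3, makes the phosphoinositide that marks the growing membrane, held by the scaffolds encoded by Pik3r4 and Becn1 and directed by ATG14 in autophagosome formation or by UVRAG in later trafficking. All 5 genes had log2 fold changes below 0, from -0.15 for Atg14 to -0.0085 for Pik3r4, and none passed the test. Without H2A.Z dKO replicate 1, 4 of the 5 were above 0. Atg14 (chr14:48160569-48188109, minus strand) was the one that kept its value, with 45.3, 44.1 and 40.9 CPM in CTL and 38.0, 37.8 and 41.8 CPM in H2A.Z dKO. The values overlapped slightly between groups, and the comparison gave a log2 fold change of -0.15 (SE 0.118, 95% confidence interval -0.41 to 0.10), an edgeR p of 0.217 and an adjusted p of 0.937.

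Uvrag (chr7:106035253-106289654, minus strand) had one of the most open promoters, at 326 RPKM. Its promoter interval (chr7:106289537-106290133, 597 bp) held 1205, 932 and 699 counts in CTL and 923, 952 and 1021 in H2A.Z dKO, or 330.0, 337 and 333 RPKM and 263, 350.5 and 341 RPKM. H2A.Z dKO replicate 1 alone lay below the rest, and the log2 fold change was -0.072 (SE 0.101, and 0.029 without H2A.Z dKO replicate 1). Pik3r4 had the least open promoter per base of the 40 genes, at 77.3 RPKM, with 21.7, 23.3 and 30.1 CPM in CTL and 20.9, 25.7 and 27.5 CPM in H2A.Z dKO. Becn1, whose product Beclin 1 is also bound and held back by BCL2, had 29.6, 27.0 and 25.6 CPM in CTL and 25.03, 27.0 and 29.1 CPM in H2A.Z dKO over 3 promoter intervals. One of these (chr11:101163317-101163394) was among the 4 least open of all promoter intervals here, at 77.6 RPKM and a log2 fold change of 0.19 (SE 0.244, and 0.29 without H2A.Z dKO replicate 1). Pik3c3 gave -0.014 (95% confidence interval -0.28 to 0.26, and 0.043 without H2A.Z dKO replicate 1).

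Uvrag carries 6 of the 18 gene-body intervals, all in introns, more than any other of these genes. Their counts ran from 8 to 49 per library, and 4 of the 6 log2 fold changes were below 0. A narrow one of 26 bp (chr7:106044431-106044456), 245211 bp from the TSS, held 21, 16 and 12 counts in CTL and 16, 12 and 8 in H2A.Z dKO. Scaled by library size the groups did not overlap, with 132, 133 and 131 RPKM in CTL against 105, 101 and 61.3 RPKM in H2A.Z dKO, and the fit gave a log2 fold change of -0.55 (SE 0.305), an edgeR p of 0.083 and an adjusted p of 0.972. The authors' peak sets list this interval for CTL alone, where it was higher, so listing and direction are not independent. With 1 library left out in turn the log2 value ran from -0.73 to -0.35, and without H2A.Z dKO replicate 1 it was -0.73, with an edgeR p of 0.047 and an adjusted p of 0.621. In the same fit another of them (chr7:106233851-106233913) gave 0.57 with an edgeR p of 0.034, and 0.34 with all libraries.

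Conjugation of the ubiquitin-like proteins uses 8 genes of the group. ATG7 activates ATG12 and the Atg8 proteins, ATG3 and ATG10 carry them, ATG12 is joined to ATG5 and works with ATG16L1, and the proteases ATG4B and ATG4D cut the Atg8 proteins. Here 4 log2 fold changes were above 0 and 4 below, with a median of -0.0090. Atg7 (chr6:114593149-114810431, plus strand) had the lowest promoter sum in CPM, 10.1, 8.86 and 9.37 CPM in CTL and 11.6, 9.67 and 12.1 CPM in H2A.Z dKO, over a single interval of 119 bp. It had the widest confidence interval of the 40 promoter sums, at a log2 fold change of 0.23 (95% confidence interval -0.16 to 0.63). Atg4d had 67.5, 71.7 and 83.5 CPM in CTL and 63.3, 70.1 and 63.9 CPM in H2A.Z dKO. The groups overlapped, with a log2 fold change of -0.17 (SE 0.110, 95% confidence interval -0.41 to 0.066), an edgeR p of 0.146 and an adjusted p of 0.937. Atg3 had 63.8, 79.7 and 61.9 CPM in CTL and 84.3, 64.8 and 65.3 CPM in H2A.Z dKO, and its log2 fold change went from 0.068 to -0.098 without H2A.Z dKO replicate 1.

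The most open promoter of the conjugation genes was that of Atg4b, with 126 ± 11.1 CPM in CTL and 131 ± 0.416 CPM in H2A.Z dKO (SD, n = 3) and a log2 fold change of 0.048 (95% confidence interval -0.16 to 0.26, and 0.017 without H2A.Z dKO replicate 1). Atg5 gave -0.066 (95% confidence interval -0.29 to 0.16, and 0.00274 without H2A.Z dKO replicate 1), Atg16l1 -0.068 (95% confidence interval -0.31 to 0.17, and -0.021 without H2A.Z dKO replicate 1) and Atg10 -0.11 (95% confidence interval -0.39 to 0.17, and -0.17 without H2A.Z dKO replicate 1). Atg12 gave 0.065 (95% confidence interval -0.17 to 0.30, and -0.03 without H2A.Z dKO replicate 1) on chromosome 18, where it had 4 promoter intervals. One of them, 72 bp wide with its midpoint at -534 bp from the TSS, also lies at another gene and held 34, 25 and 22 counts in CTL and 45, 35 and 40 in H2A.Z dKO. Every H2A.Z dKO value exceeded the CTL values once scaled, 77.2, 75.0 and 86.8 RPKM against 106, 107 and 111 RPKM, with a log2 fold change of 0.45 (SE 0.230), an edgeR p of 0.065 and an adjusted p of 0.972. The authors' peak sets list this interval for H2A.Z dKO alone, where it was higher, so listing and direction are not independent. The sum over 3 of the 4 intervals of Atg12, of which a pair overlap, did not separate the groups, at 67.0, 63.9 and 62.2 CPM in CTL and 73.4, 65.7 and 62.9 CPM in H2A.Z dKO.

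Atg7 and Atg10 hold 5 more intervals in their introns. The one of Atg7 with the most counts (chr6:114789053-114789172), 195961 bp from the TSS, held 61, 36 and 26 counts in CTL and 37, 45 and 65 in H2A.Z dKO and gave 0.17 (SE 0.253, and 0.40 without H2A.Z dKO replicate 1) on the log2 scale. The 3 intervals of Atg10 lie 176957 to 256411 bp from its TSS, held 2 to 47 counts per library, and gave -0.44, -0.45 and -0.006 on the log2 scale, and 0.052, -0.34 and 0.24 without H2A.Z dKO replicate 1. The confidence intervals of the first and second of these reach past a 2-fold change.

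The Atg8 family comprises the small proteins that are joined to the membrane lipid phosphatidylethanolamine and recruit cargo. Map1lc3a (chr2:155102033-155103809, plus strand), which encodes LC3A, had 76.2, 73.2 and 73.3 CPM in CTL and 85.0, 78.5 and 87.8 CPM in H2A.Z dKO. The groups did not overlap, and the comparison gave a log2 fold change of 0.17 (SE 0.0996, 95% confidence interval -0.04 to 0.39), an edgeR p of 0.103 and an adjusted p of 0.937. Map1lc3b, which encodes the LC3B commonly used as a marker of autophagosomes, had 38.6, 42.1 and 34.9 CPM and 40.01, 30.5 and 38.0 CPM, with overlap and a log2 fold change of -0.088 (95% confidence interval -0.39 to 0.22, and -0.19 without H2A.Z dKO replicate 1). Per base the Map1lc3a promoter was 1.09 times that of Map1lc3b on average (range over the 6 libraries 0.886 to 1.31), so their order was not the same in every library.

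Gabarap had 90.1, 90.1 and 89.5 CPM in CTL and 91.3, 78.9 and 77.7 CPM in H2A.Z dKO. Replicates 2 and 3 of H2A.Z dKO lay below the CTL values and replicate 1 above them, for a log2 fold change of -0.12 (95% confidence interval -0.35 to 0.11). It was -0.22 without replicate 1, at an edgeR p of 0.021 and an adjusted p of 0.495. Per base its promoter was 2.15 times that of Gabarapl1 on average (range over the 6 libraries 1.67 to 2.69) and 1.4 times that of Gabarapl2 (range 1.27 to 1.67). Gabarapl1 had 18.3, 17.1 and 13.1 CPM in CTL and 15.0, 14.5 and 18.3 CPM in H2A.Z dKO, 0.658 times the level of Gabarapl2 per base. One of its intervals (chr6:129482898-129482937, midpoint at -301 bp from the TSS) was the least open promoter interval of the 81, at 72.0 RPKM. It held 18, 16 and 11 counts in CTL and 10, 13 and 16 in H2A.Z dKO. Gabarapl2 gave -0.05 (95% confidence interval -0.29 to 0.19, and -0.10 without H2A.Z dKO replicate 1) and Gabarapl1 -0.041 (95% confidence interval -0.42 to 0.34, and -0.02 without H2A.Z dKO replicate 1). Per base, the order Gabarap, Gabarapl2, Gabarapl1 held in each of the 6 libraries. In CPM, not divided by width, Gabarapl2 had a higher mean than Gabarap, 88.8 against 86.2.

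The membrane of the growing autophagosome is fed by the lipid transfer proteins ATG2A and ATG2B, the scramblase ATG9A, and the WIPI proteins that read the phosphoinositide mark. Wipi1 (chr11:109434645-109473281, minus strand) had the most open promoter of the 40 genes, at 345 RPKM, above 99.6% of all genes. Its single promoter interval (chr11:109472634-109473449, 816 bp, overlapping a UTR) held 1578, 1248 and 1024 counts in CTL and 2057, 1208 and 1277 in H2A.Z dKO, or 316, 330.4 and 357 RPKM and 429, 325 and 312 RPKM. H2A.Z dKO replicate 1 lay above all others and replicates 2 and 3 among or below the CTL values, and the promoter sum gave a log2 fold change of 0.095 (95% confidence interval -0.18 to 0.37) with replicate 1 and -0.088 without it. Wipi2 (chr5:143105496-143146542, plus strand) had 50.3, 49.7 and 48.9 CPM in CTL and 54.1, 56.0 and 56.4 CPM in H2A.Z dKO. Its groups did not overlap, with a log2 fold change of 0.16 (SE 0.105, 95% confidence interval -0.066 to 0.38), an edgeR p of 0.151 and an adjusted p of 0.937. Per base, the Wipi1 promoter was 2.35 times that of Wipi2 on average (range over the 6 libraries 1.97 to 2.83).

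Atg2a (chr19:6241668-6262335, plus strand) had 89.7, 97.4 and 83.8 CPM in CTL and 69.1, 91.2 and 83.6 CPM in H2A.Z dKO. Only H2A.Z dKO replicate 1 lay well below the rest, with a log2 fold change of -0.16 (SE 0.111, 95% confidence interval -0.40 to 0.079), an edgeR p of 0.173 and an adjusted p of 0.937, and -0.075 without that library. Atg2b had 64.4, 74.7 and 67.3 CPM in CTL and 86.3, 74.3 and 65.3 CPM in H2A.Z dKO, for which replicate 1 was the highest library. Per base the Atg2a promoter was 2.05 times that of Atg2b on average (range over the 6 libraries 1.36 to 2.36), the lowest ratio being that of H2A.Z dKO replicate 1. Atg9a had 86.1 ± 3.86 CPM in CTL and 83.6 ± 4.96 CPM in H2A.Z dKO (SD, n = 3) and a log2 fold change of -0.04 (95% confidence interval -0.26 to 0.18, and -0.11 without H2A.Z dKO replicate 1).

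Receptors link cargo to the Atg8 proteins: p62, encoded by Sqstm1, NBR1 and optineurin bind ubiquitinated cargo, and BNIP3 and BNIP3L sit on mitochondria marked for removal. The log2 fold change was above 0 for 4 of the 5 genes, with a median of 0.052, and above 0 for 1 of 5 without H2A.Z dKO replicate 1, with a median of -0.12. Bnip3l (chr14:67604076-67627714, minus strand) had 167, 169 and 169 CPM in CTL and 217, 150.1 and 155 CPM in H2A.Z dKO. Replicate 1 of H2A.Z dKO lay above the narrow CTL range and replicates 2 and 3 below it. Its log2 fold change was 0.056 (95% confidence interval -0.24 to 0.35), and -0.16 without replicate 1 (edgeR p of 0.027, adjusted p of 0.497). Bnip3 had 73.2, 69.6 and 80.1 CPM in CTL and 98.9, 67.7 and 62.1 CPM in H2A.Z dKO, with replicate 1 again the highest library and replicates 2 and 3 below the CTL values. Its log2 fold change went from 0.052 to -0.21 without that library (edgeR p of 0.049, adjusted p of 0.555). Per base the Bnip3 promoter was 0.573 times that of Bnip3l on average (range over the 6 libraries 0.524 to 0.619), below 1 in every library.

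The intronic Bnip3 interval with the forkhead core shown above held 161, 97 and 107 counts in CTL and 111, 108 and 132 in H2A.Z dKO, or 145, 115 and 167 RPKM and 104, 130.4 and 144 RPKM. The groups overlapped, with a log2 fold change of -0.17 (SE 0.183, and -0.061 without H2A.Z dKO replicate 1), and here replicate 1 of H2A.Z dKO was the lowest library. Sqstm1 (chr11:50012868-50024329, minus strand) had 93.2, 105 and 94.0 CPM in CTL and 129, 93.6 and 89.0 CPM in H2A.Z dKO, a log2 fold change of 0.11 (95% confidence interval -0.20 to 0.41) that became -0.11 without replicate 1. One of its 4 promoter intervals (chr11:50024224-50024308, over a coding exon at a TSS and also at another gene) held 93, 55 and 39 counts in CTL and 121, 63 and 74 in H2A.Z dKO, with a log2 fold change of 0.36 (SE 0.218, and 0.12 without H2A.Z dKO replicate 1), an edgeR p of 0.113 and an adjusted p of 0.972. That interval too is in the authors' peak set of H2A.Z dKO alone, where it was higher. Nbr1 had 223, 214 and 191 CPM in CTL and 210.4, 195 and 197 CPM in H2A.Z dKO, and its main interval (chr11:101413844-101414236), shared with another gene, reached 337 RPKM with a log2 fold change of -0.12 (SE 0.099). Optn gave 0.02 (95% confidence interval -0.23 to 0.27, and 0.07 without H2A.Z dKO replicate 1).

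Lysosomal genes and their control close the pathway: TFEB switches on lysosomal and autophagy genes when it enters the nucleus, VPS11 and VPS18 belong to the core of the tethering complexes that prepare fusion with the lysosome, LAMP1 and LAMP2 coat the lysosomal membrane, and the cathepsins L and D digest protein inside. The log2 fold change was above 0 for 5 of the 7 genes, with a median of 0.017, and above 0 for 3 of 7 without H2A.Z dKO replicate 1. Tfeb (chr17:47873979-47929368, plus strand), with 14 annotated TSSs, had 11 promoter intervals, 4 of them inside introns near internal TSSs, and 2 gene-body intervals, the most of the 40 genes in all. Of the 11, 8 were summed, since others overlap them. Of the 40 genes 7 had 4 or more promoter intervals (11.01% of all genes) and 21 had 1. The median was 1 promoter interval per gene here, against 2 for all genes. Its promoter sum was 205, 200.5 and 211 CPM in CTL and 242, 196 and 201 CPM in H2A.Z dKO, with replicate 1 the highest library and a log2 fold change of 0.055 (95% confidence interval -0.18 to 0.29, and -0.071 without H2A.Z dKO replicate 1).

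Along Tfeb the most open intervals lay within 1 kb of its first TSS. The interval of 64 bp at chr17:47874006-47874069 had 355, 327 and 355 RPKM in CTL and 322, 271 and 329.8 RPKM in H2A.Z dKO, the one at chr17:47874705-47874893 314, 291 and 314 RPKM and 422, 289.6 and 315 RPKM, and the one at chr17:47873840-47873956 232, 301 and 259.8 RPKM and 269, 246 and 276 RPKM. The groups overlapped in each, with log2 fold changes of -0.16 (SE 0.177), 0.17 (SE 0.142, and -0.042 without H2A.Z dKO replicate 1) and 0.0025 (SE 0.159, and -0.033 without H2A.Z dKO replicate 1). The widest intronic interval (chr17:47885605-47886150, 546 bp) held 423, 251 and 234 counts in CTL and 315, 317 and 370 in H2A.Z dKO, with 0.046 (SE 0.132, and 0.16 without H2A.Z dKO replicate 1) on the log2 scale.

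One promoter interval of Tfeb that lies in an intron was the single member interval with an unadjusted p under 0.05. It lies 885 bp past an internal TSS and 23.0 kb past the first, overlaps no exon and held no match to the motifs above, and its sequence is printed because it had the smallest p of the 99.
Tfeb intron (chr17:47896963-47897056, plus strand): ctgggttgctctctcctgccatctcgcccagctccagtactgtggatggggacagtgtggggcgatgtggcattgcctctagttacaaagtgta
It held 52, 44 and 29 counts in CTL and 27, 32 and 31 in H2A.Z dKO, or 90.4, 101 and 87.6 RPKM and 48.9, 74.8 and 65.7 RPKM. Every H2A.Z dKO library lay below every CTL library once scaled, with a log2 fold change of -0.58 (SE 0.235), an edgeR p of 0.022 and an adjusted p of 0.972. The authors' peak sets list this interval for CTL alone, the group where it was higher. Its listing and its direction are thus not independent. Without H2A.Z dKO replicate 1 its log2 value was -0.43 (SE 0.245), with an edgeR p of 0.087 and an adjusted p of 0.687. Over 15 alternative settings its edgeR, DESeq2 or voom p ran from 0.018 to 0.087 and was under 0.05 in 12. The exceptions were DESeq2 and the fits without CTL replicate 2 or H2A.Z dKO replicate 1. Beside this interval, the neighbouring one of 51 bp gave -0.15 (SE 0.225) on the log2 scale, with overlapping groups.

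**Figure D4:**
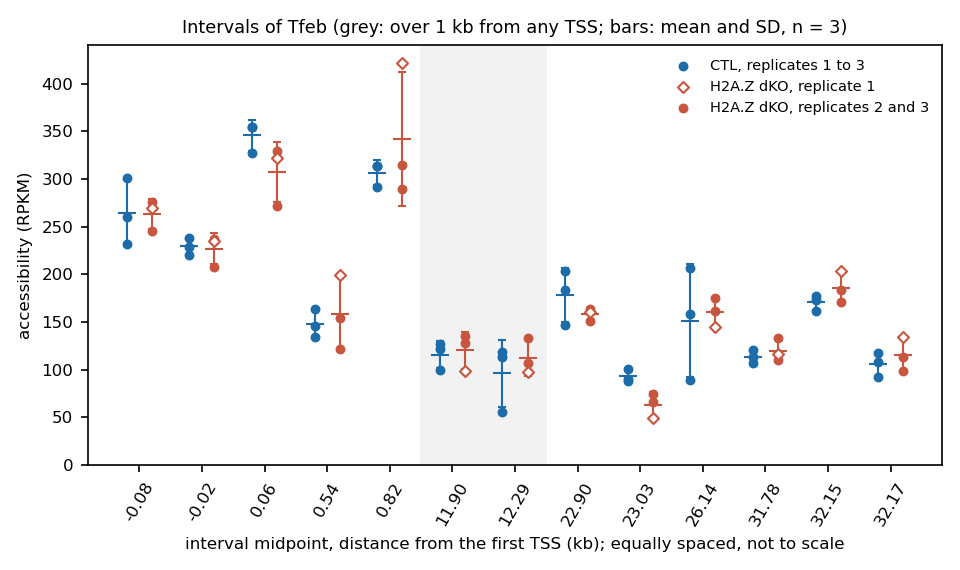
Accessibility in RPKM (vertical axis, from 0) of the 13 intervals of Tfeb in order along the gene, labelled by the distance of the midpoint from the first TSS in kb, with 1 point per library and bars for the mean and SD of 3 libraries. The intervals at the first TSS are the most open, and at 23.03 kb the H2A.Z dKO points lie below the CTL points.

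Vps11 had 18.6, 16.2 and 17.0 CPM in CTL and 13.5, 20.2 and 14.9 CPM in H2A.Z dKO over 184 bp, and one of its intervals (chr9:44169656-44169729, over a coding exon) was among the 4 least open promoter intervals. It held 33, 25 and 27 counts in CTL and 20, 28 and 28 in H2A.Z dKO. For the gene, the log2 fold change was -0.11 (95% confidence interval -0.49 to 0.26, and -0.013 without H2A.Z dKO replicate 1) and that of Vps18 0.017 (95% confidence interval -0.25 to 0.28, and 0.084 without H2A.Z dKO replicate 1). Lamp1 had 28.4, 32.2 and 31.5 CPM in CTL and 35.1, 29.5 and 34.7 CPM in H2A.Z dKO, with overlap. Lamp2, on chromosome X, had 20.4, 26.1 and 19.6 CPM in CTL and 22.6, 17.8 and 26.1 CPM in H2A.Z dKO. Per base the Lamp1 promoter was 2.23 times that of Lamp2 on average (range over the 6 libraries 1.88 to 2.53). Lamp1 gave 0.12 (95% confidence interval -0.18 to 0.41, and 0.048 without H2A.Z dKO replicate 1) and Lamp2 0.010 (95% confidence interval -0.37 to 0.39, and -0.025 without H2A.Z dKO replicate 1) on the log2 scale.

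Ctsl had 78.6, 78.2 and 80.7 CPM in CTL and 68.6, 73.8 and 76.7 CPM in H2A.Z dKO. Its groups did not overlap, and the log2 fold change of -0.12 (95% confidence interval -0.32 to 0.089) did not pass the test (edgeR p of 0.242, adjusted p of 0.937). Ctsd had 63.4, 62.6 and 62.2 CPM in CTL and 60.3, 70.1 and 64.9 CPM in H2A.Z dKO, with overlap and 0.048 (95% confidence interval -0.17 to 0.27, and 0.08 without H2A.Z dKO replicate 1). An interval in an intron of Ctsd (chr7:149570347-149570409) held 48, 31 and 23 counts in CTL and 41, 45 and 46 in H2A.Z dKO and gave 0.28 (SE 0.230).

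All 18 gene-body intervals lay in introns, of 8 genes (Ulk1, Uvrag, Atg7, Atg10, Wipi1, Bnip3, Tfeb and Ctsd), and the other 32 genes had none. They were narrow and shallow, with a median width of 66.5 bp and a median of 28.3 counts per library, against 87 bp and 39.2 counts for all gene-body intervals. Their median log2 fold change was -0.10 beside 0.019 for all gene-body intervals, and that of the 81 promoter intervals was 0.021 beside 0.011 for all promoter intervals. Without H2A.Z dKO replicate 1 both took the other sign, at 0.016 beside 0.093 for all gene-body intervals and -0.058 beside -0.039 for all promoter intervals. The median level of the 18 was 97.05, 101 and 99.8 RPKM in CTL and 73.2, 102 and 104 RPKM in H2A.Z dKO, where replicate 1 stood alone at the low end. In the promoter intervals that library had the highest median, 164 RPKM against 144 to 154 RPKM in the other 5. Changes of 2-fold lay outside the 95% confidence interval of 80 of the 81 promoter intervals and of 12 of the 18 gene-body intervals.

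Other genes of the pathway were taken from a list of 93, of which 85 had a promoter interval. None passed the adjusted threshold. Their log2 fold change was above 0 for 38 and below 0 for 47, so that 44.7% lay above 0 beside 49.0% of all genes. At an unadjusted p under 0.05 there was 1 above 0 (1.18%, beside 1.80% of all genes) and 4 below (4.71%, beside 2.44%). Without H2A.Z dKO replicate 1 there were 32 above and 53 below 0, with 1 and 5 at that level (7.06% in all, beside 9.01% of all genes). The 6 were Hexa, a lysosomal hexosaminidase subunit, above 0 and Ctsf, Neu1, Atp6v1b2, Foxo3 and Pink1, the kinase that marks damaged mitochondria, below, and Hexa, Atp6v1b2, Foxo3 and Pink1 were not under 0.05 with all libraries. The one above 0 was Prkaa2, a catalytic subunit of the energy sensor AMPK that phosphorylates ULK1, with 0.39 (SE 0.174, edgeR p of 0.041, adjusted p of 0.937) and, without H2A.Z dKO replicate 1, 0.19 (SE 0.160, edgeR p of 0.233). Those below 0 were Atp6v0a1 and Atp6v1c1, subunits of the proton pump that acidifies the lysosome, with -0.33 (SE 0.131, edgeR p of 0.023, adjusted p of 0.937) and -0.34 (SE 0.132, edgeR p of 0.022, adjusted p of 0.937), and the lysosomal enzymes Ctsf, a cathepsin, with -0.46 (SE 0.133, edgeR p of 0.0035, adjusted p of 0.937), and Neu1, a sialidase, with -0.21 (SE 0.094, edgeR p of 0.043, adjusted p of 0.937). Without that library Ctsf (-0.45) and Neu1 (-0.18) stayed under 0.05, with an edgeR p of 0.0027 and 0.046, while Atp6v0a1 (-0.22) and Atp6v1c1 (-0.25) did not, at 0.057 and 0.069. Of 14 subunits of the proton pump 10 lay below 0, with a median of -0.14 beside -0.0034 for all genes, and without H2A.Z dKO replicate 1 there were 9, with a median of -0.075 beside -0.038. Of the 5 transcription factors 4 lay below 0, among them Foxo3 at -0.071 (SE 0.111) and the TFEB relatives Tfe3 at -0.20 (SE 0.104) and Mitf at -0.21 (SE 0.126), and the same 3 gave -0.17 (edgeR p of 0.025, adjusted p of 0.495), -0.17 and -0.088 without that library. The genes of mTORC1 and AMPK had 9 above and 6 below 0 (6 and 9 without it), the fusion genes 3 and 4 (3 and 4), the lysosomal enzymes 9 and 12 (8 and 13), the lysosomal membrane proteins 3 and 3 (2 and 4), and the other autophagy genes 9 and 8 (7 and 10).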

How the data were processed

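Per the labels and the study's methods, the authors trimmed and aligned read pairs to mm9, removed PCR duplicates, shifted fragment ends for the transposase, called peaks with MACS2 and deposited a raw count of fragment ends for each interval in each library. The authors' own comparison columns (scaled mean, log2 fold change, error, p-values) were not used. Coordinates are as deposited, and since the table does not say whether starts count from 0 or 1, positions and sequences may be off by 1 base.

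Members and lists were chosen with earlier results of these data known. All 39768 intervals, and promoter sums of 11018 genes, were compared with edgeR 4.0.16 (R 4.3.3, TMM factors, robust quasi-likelihood test, no replicate block, Benjamini-Hochberg adjustment over each whole table, threshold 0.05) and tested on simulated data. A symbol with several gene IDs counted once, by the ID with most counts. Atg101 and Tfeb were matched through older symbols. CPM and RPKM used total counts in intervals. PCR copies left after duplicate removal are in no error given. Named are all 40 genes, the intervals with the smallest p, the highest and lowest promoter RPKM or the most gene-body counts, and paralog pairs. Alternatives were DESeq2 1.42.0, limma 3.58.1 voom, other scalings and filters, a replicate block and each library left out. RNA-seq and ChIP-seq were not analysed here.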

Additional observations from a re-analysis of the deposited data

How the results depend on the processing

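No interval and no promoter sum, among the 40 genes, the 85 other pathway genes or the whole table, passed the adjusted threshold under any alternative tried. Counts at an unadjusted p under 0.05 moved. DESeq2 gave 756 intervals and 248 promoter sums, of which 0 and 0 were members. Leaving out each library in turn gave 1265 to 3163 intervals (0 to 6 of the 99) and 262 to 993 promoter sums (0 to 4 of the 40), the highest counts without H2A.Z dKO replicate 1. With all libraries, 0 gene-body intervals were at that level, and without H2A.Z dKO replicate 1 there were 3. With the replicate number as a block there were 1756 intervals and 397 promoter sums, of which 1 and 0 were members. Deviations of libraries with the same number correlated at -0.124, -0.064 and -0.052, and those of libraries with different numbers at -0.053 to 0.111. These counts gave no sign of pairing by number. Deviations from the mean of 3 libraries cannot show whether libraries were prepared together.

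The median log2 fold change of the 81 promoter intervals ran from -0.058 (without H2A.Z dKO replicate 1) to 0.059, and that of the 18 gene-body intervals from -0.21 (without H2A.Z dKO replicate 2) to 0.016 (without replicate 1), and was 0.020 over those with a mean count of 20 or more. Relative to all promoter intervals, the median level of the 81 was 1.16 times as high in RPKM and 1.31 times in CPM. The floxed H2afz intervals gave a log2 ratio of -0.13, and -0.30 to 0.019 with 1 library left out. For 60 single values, 937 recomputed values were compared with the reported ones. Of these 53 took the other sign, 48 of them with a library left out, and they belong to 31 of the 60 values. The cause was not tested. The ranges of those 31 over libraries left out, as log2 fold changes, were for promoter sums Atg101 -0.022 to 0.17, Atg12 -0.0297 to 0.11, Atg2b -0.0021 to 0.23, Atg3 -0.098 to 0.19, Atg4b -0.011 to 0.12, Atg5 -0.15 to 0.0027, Atg9a -0.11 to 0.0011, Becn1 -0.085 to 0.037, Bnip3 -0.21 to 0.18, Bnip3l -0.16 to 0.16, Gabarapl1 -0.15 to 0.068, Gabarapl2 -0.14 to 0.043, Lamp2 -0.11 to 0.15, Map1lc3b -0.19 to 0.025, Optn -0.067 to 0.13, Pik3c3 -0.10 to 0.043, Pik3r4 -0.11 to 0.13, Sqstm1 -0.11 to 0.21, Tfeb -0.071 to 0.12, Ulk1 -0.12 to 0.0055, Ulk2 -0.053 to 0.16, Uvrag -0.14 to 0.029, Vps18 -0.094 to 0.12, Wipi1 -0.088 to 0.18, and for intervals Atg7 (chr6:114789053-114789172) -0.098 to 0.40, Uvrag (chr7:106289537-106290133) -0.14 to 0.029, Pik3r4 (chr9:105545176-105545497) -0.11 to 0.13, Wipi1 (chr11:109472634-109473449) -0.0896 to 0.18, Tfeb (chr17:47873840-47873956) -0.0899 to 0.11, Tfeb (chr17:47874705-47874893) -0.042 to 0.28, Tfeb (chr17:47885605-47886150) -0.053 to 0.16. Loess offsets gave -0.00010 for the Tfeb interval at chr17:47873840-47873956, 0.0014 for the Pik3c3 sum and 0.0083 for the Pik3r4 sum, and limma voom gave 0.0050 for the Pik3r4 sum and 0.0043 for its interval. The gene-body intervals had fewer counts than the promoter intervals, at a median of 28.3 against 152 per library.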
